A study of Homo sapiens with 8 samples.

Results

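The genes that encode collagen chains were examined in A673/TR/shFEZF1 cells. They were taken as every symbol of the deposited gene table made of COL, a number, A and a number and nothing else, which gave 44 of the 38256 symbols listed. The 44 genes fall into 11 fibrillar chains, 6 basement membrane chains, 10 fibril-associated (FACIT) chains, 5 beaded filament chains, 3 hexagonal network chains, 4 transmembrane chains, 2 multiplexins, the anchoring fibril chain COL7A1 and 2 others.

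The A673 line was derived from an Ewing sarcoma and expresses the EWSR1-FLI1 fusion. The A673/TR/shFEZF1 cells hold a tetracycline repressor and an shRNA against the transcription factor FEZF1, both carried by every culture, and doxycycline switches the shRNA on. RNA was sequenced from 4 untreated cultures and from 4 cultures given 1 µg/mL doxycycline for 72 h, with 1 culture of each kind from a polyclonal population (labelled bulk) and from clones c3, c5 and c6. Each clone is a single isolate, so a difference between origins describes these isolates. No doxycycline-treated culture without the shRNA was among the libraries, so an effect of doxycycline itself and of the FEZF1 shRNA cannot be told apart, and the p-values measure the spread between these cultures, which may be technical.

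Collagens are built from 3 chains wound into a triple helix. Collagen I usually holds COL1A1 and COL1A2 chains, collagen III only COL3A1, and collagen V, which copolymerises with collagen I and limits fibril diameter, COL5A1 and COL5A2. Collagen IV forms the mesh of basement membranes, collagen VI forms beaded filaments around cells, and the FACIT collagens sit on fibril surfaces. Chains are hydroxylated and folded in the endoplasmic reticulum, secreted, trimmed and cross-linked outside the cell. Fibroblasts make most of the collagen I and III of connective tissue, and osteoblasts the collagen I of bone.

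Between 26719886 and 42422421 reads per library were assigned to transcripts, of which 89.9% to 91.1% could be matched to a gene symbol and 0.15% to 0.637% of the matched reads fell on collagen chains. All 10 Ewing sarcoma markers (CD99, NKX2-2, NR0B1 and others) had a mean of at least 1 TPM (transcripts per 1e6, a level corrected for transcript length), and their summed level was 2320 to 4840 TPM. Of 8 fibroblast markers 5 reached 1 TPM (DCN, PDGFRB, FAP, THY1 and FBLN1), while LUM, PDGFRA and POSTN did not. The fibroblast list summed to 265 to 390 TPM. The osteoblast list summed to 42.3 to 96.2 TPM, most of it ALPL (mean 58.9 TPM). RUNX2 was at 1.45 TPM, the other osteoblast markers were below 1 TPM, and SP7 and IBSP were below 0.1 TPM. The chondrocyte list summed to 12.9 to 27.4 TPM, most of it SOX9 (mean 18.6 TPM), with ACAN, COL9A1 and COMP below 0.1 TPM. The endothelial list summed to 0.295 to 0.966 TPM, with no member at 1 TPM and with CDH5, VWF and TIE1 below 0.1 TPM. The shRNA target FEZF1 was at 96.4, 70.5, 107.1 and 74.4 CPM (counts per 1e6, scaled to library size) in the untreated polyclonal, c3, c5 and c6 cultures and at 60.6, 43.0, 60.8 and 36.4 CPM with doxycycline. The groups did not overlap (p = 0.0286, 2-sided, by an exact permutation test, which with 4 cultures a group goes no lower), and the log2 fold change was -0.81 (standard error 0.0726; edgeR's quasi-likelihood test with origin as a block, Benjamini-Hochberg adjusted p = 0.00594). Without the block the adjusted p was 0.29 by edgeR and 0.0152 by DESeq2.

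The 7 highest collagen chains in A673/TR/shFEZF1 cells were COL1A2, COL3A1, COL1A1, COL5A2, COL6A2, COL4A2 and COL6A1. By mean TPM over the 8 libraries, 20 of the 44 chains reached 1 TPM, and 18 did so in every library. Chains matched in small part only, COL18A1 above all, could not be placed by this count. COL1A2 led at 260.3 ± 196 TPM (SD, n = 8), followed by COL3A1 at 172 ± 128 and COL1A1 at 165 ± 135 TPM. These 3 chains together made up 54.3% of the summed collagen level over all libraries, and the 12 highest chains made up 95.3%. Within libraries the share of these 3 chains was 63.1% and 66.2% in the untreated and doxycycline cultures of c3, 24.2% and 35.8% in c5, and between 45.1% and 54.7% in the others. The differences between these 3 means were smaller than their SDs, which pool the origins. Within libraries COL1A2 was the highest chain in every library outside c5, whereas COL1A1 and COL3A1 changed places between libraries.

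The partners of the major fibrils came next. COL5A2 was at 94.3 ± 21.9 TPM (SD, n = 8) and COL5A1, its partner in collagen V, at 26.7 ± 15.7 TPM. Of the collagen VI chains, COL6A2 was at 79.1 ± 28.9 and COL6A1 at 61.6 ± 23.7 TPM, whereas COL6A3 was at 1.13 ± 0.284 TPM. The matched transcripts of COL6A3 held 52.7% of the reads that the mean in the deposited gene table implies, so its level is understated here. The basement membrane chains COL4A2 and COL4A1 were at 62.7 ± 22.5 and 32.5 ± 13.9 TPM.

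Of the FACIT chains, COL21A1 was at 39.0 ± 7.38 and COL16A1 at 29.4 ± 8.47 TPM. COL25A1, a transmembrane collagen best known from neurons, was at 25.3 ± 5.97 TPM. COL9A3, a cartilage FACIT chain, followed at 11.3 ± 2.52 TPM, while its assembly partners COL9A1 and COL9A2 were at 0.00694 and 0.738 TPM. COL27A1, COL12A1, COL5A3, COL26A1, COL13A1 and COL8A2 lay between 8.66 and 3.49 TPM.

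The remaining chains were low in their matched transcripts, which for COL18A1 and some others are a small part of the gene, as given below. The cartilage fibril chains COL2A1, COL11A1 and COL11A2 had means of 0.146, 0.114 and 0.344 TPM, although the chondrocyte regulator SOX9 passed 1 TPM. In 11 chains no library reached 0.1 TPM. The collagen IV genes lie head to head in 3 pairs, and the level differed between the pairs: COL4A1 and COL4A2 were at the levels above, COL4A3 and COL4A4 at 0.0217 and 0.00494 TPM, and COL4A5 and COL4A6 at 0.0147 and 0.00318 TPM. COL4A4 was matched in part only.

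Some chains could not be measured in full, because part of their transcripts had no match to a symbol. The matched share of the mean in the deposited gene table was 1.37% for COL18A1, a basement membrane multiplexin whose mean there is 1035.9 normalized counts, 7.39% for COL10A1, 8.51% for COL4A4, 11.8% for COL6A5 and 45.3% for COL19A1. It was 60.0% for COL7A1, 62.4% for COL9A2, 68.0% for COL20A1, 75.1% for COL4A3, 75.4% for COL13A1 and 76.9% for COL25A1. COL14A1 was listed at 0 in all 8 libraries for its 1 matched transcript, with none of its mean matched. Low values of these genes are therefore not levels of the whole gene. For COL9A3, which overlaps TCFL5 (mean 942.4 reads against 479.8), reads of both genes cannot be fully told apart if strand was not used in the counting.

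Partner chains of 1 collagen type were compared as ratios of TPM within each library, which needs no scaling between libraries. For collagen I, COL1A2 stood at 1.83 and 1.52 times COL1A1 in the untreated and doxycycline polyclonal cultures, at 1.37 and 1.49 in c3 and at 3.12 and 3.13 in c6. In clone c5 the order was inverted, at 0.463 and 0.312. COL1A2 was the highest chain in all 6 libraries of the other origins but ranked 9 and 7 in the c5 cultures, where COL5A2 (77.7 TPM untreated) and COL1A1 (83.5 TPM with doxycycline) led.

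The ratios of the other types varied less between origins. COL4A2 was 1.76 to 2.45 times COL4A1, and COL6A2 was 1.15 to 1.59 times COL6A1. COL6A3 was 0.0108 to 0.046 times COL6A1. The ratio of COL5A2 to COL5A1 was 3.07, 2.08, 4.56 and 3.80 without doxycycline and 4.03, 3.67, 6.27 and 6.13 with it (polyclonal, c3, c5, c6), higher in 4 of 4 pairs. The COL6A2 to COL6A1 ratio was also higher in 4 of 4 pairs and the COL4A2 to COL4A1 ratio lower in 4 of 4 pairs. With 4 pairs an exact 2-sided sign-flip permutation test cannot go below p = 0.125, which these 3 of the 7 ratios compared reached.

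**Figure D1:**
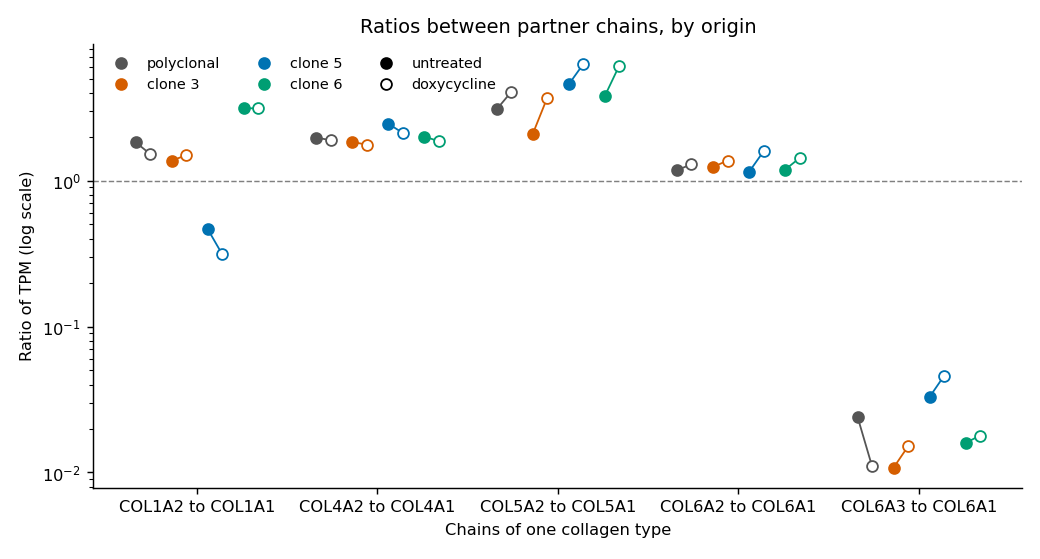
Ratio of TPM between chains of 1 collagen type on a log axis, with a line joining the untreated (filled) and doxycycline (open) culture of each origin; the dashed line marks equal levels. COL1A2 to COL1A1 falls below 1 in both clone c5 cultures (0.463 and 0.312), and COL5A2 to COL5A1 is higher with doxycycline in every origin.

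The origins differed widely in their collagen genes. The summed collagen level was 991 and 1012.9 TPM in the untreated and doxycycline polyclonal cultures, 2015.8 and 1962.5 in c3, 478.5 and 456.0 in c5, and 991 and 887.0 in c6. Clone c3 was thus highest and clone c5 lowest in both groups. The fibroblast marker sum moved in part with this, from 390 and 360 TPM in c3 to 309 and 265 in c5, but its members did not move as one. FBLN1 and PDGFRB were higher in c3 (202.4 and 193.9, and 76.0 and 62.0 TPM) than in c5 (156.0 and 136.2, and 44.7 and 29.4 TPM), whereas DCN (1.32 and 1.04 against 3.93 and 3.12 TPM) and LUM (0.244 and 0.410 against 1.26 and 1.55 TPM) were lower in c3. The Ewing sarcoma marker sum was lowest in c3 (2320 and 2360 TPM) and highest in c6 (4620 and 4840 TPM). Most of it was CD99, at 1456 and 1387 TPM in c3 and 3512 and 3671 TPM in c6. NR0B1 was higher in c3 (70.2 and 105.1 TPM) than in c6 (51.6 and 91.5 TPM), as was BCL11B, whereas the other members were lower. The part of these markers in the differences was not tested. In bulk RNA, fewer cells that express a gene and less of its RNA per cell cannot be told apart.

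Of the 44 chains, 30 passed the filter on low counts, and 21 of these differed between origins (edgeR's quasi-likelihood F test with doxycycline in the model, Benjamini-Hochberg adjusted p under 0.05), where 39.4% of all 15993 genes tested did. The 2 cultures of an origin served as its replicates. Among the 20 chains with a mean of at least 1 TPM, 15 were highest in clone c3 and 15 were lowest in clone c5. The exceptions included COL9A3, COL13A1 and COL21A1, which were highest in clone c6, and COL25A1, which was highest in the polyclonal population. The median range between origin means was 1.35 on the log2 scale over the 30 chains and 0.56 over all genes tested.

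COL1A2 had the widest range of any called chain. Its CPM was 617.4 and 657.8 in the untreated and doxycycline polyclonal cultures, 1606 and 1591 in c3, 68.1 and 79.6 in c5, and 827.2 and 804.4 in c6. The origin means spanned 4.44 on the log2 scale, a 21.7-fold range, and by p-value COL1A2 ranked 2 of the 15993 genes (adjusted p = 4.05e-06). COL3A1 was at 342.4 and 392.1 CPM in the polyclonal cultures, 1160.0 and 1218 in c3, 155.9 and 177.7 in c5, and 482.8 and 566.6 in c6. It spanned 2.84 on the log2 scale and ranked 7. COL1A1 was at 393.9 and 505.9, 1376 and 1247, 172.5 and 298.4, and 309.9 and 300.2 CPM in the same order, a range of 2.53. In each of these genes the range of the origin means was larger than the difference between the cultures of any origin. For COL1A1 this did not hold for every pair of origins. Its doxycycline c5 culture (298.4 CPM) lay near the c6 cultures (309.9 and 300.2 CPM).

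The short-chain network collagens followed the same order of clones. COL8A2, a chain of the cornea and vessel wall, had origin mean CPM of 7.28, 21.8, 1.77 and 7.46 (polyclonal, c3, c5, c6), a range of 3.58 on the log2 scale. COL8A1 spanned 3.14, and its c3 cultures were at 4.41 and 3.95 CPM against 0.399 to 0.921 CPM in the other 6. Without clone c3 the COL8A1 difference did not pass (adjusted p = 0.182).

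COL12A1, a FACIT chain found in tendon and ligament, was at 116.3 and 146.6 CPM in c3 and between 21.9 and 41.4 CPM elsewhere, a range of 2.43 on the log2 scale. COL5A3 (range 2.26) was also highest in c3, at 46.1 and 43.0 CPM, but lowest in c6, at 9.29 and 9.21 CPM. COL26A1 (range 2.25) was at 18.7 and 11.3 CPM in c3 and at 3.41 and 2.66 CPM in c5. Without clone c3, 5 of the 21 calls were lost (COL8A1, COL9A3, COL11A1, COL16A1 and COL28A1), and 16 chains passed.

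**Figure D2:**
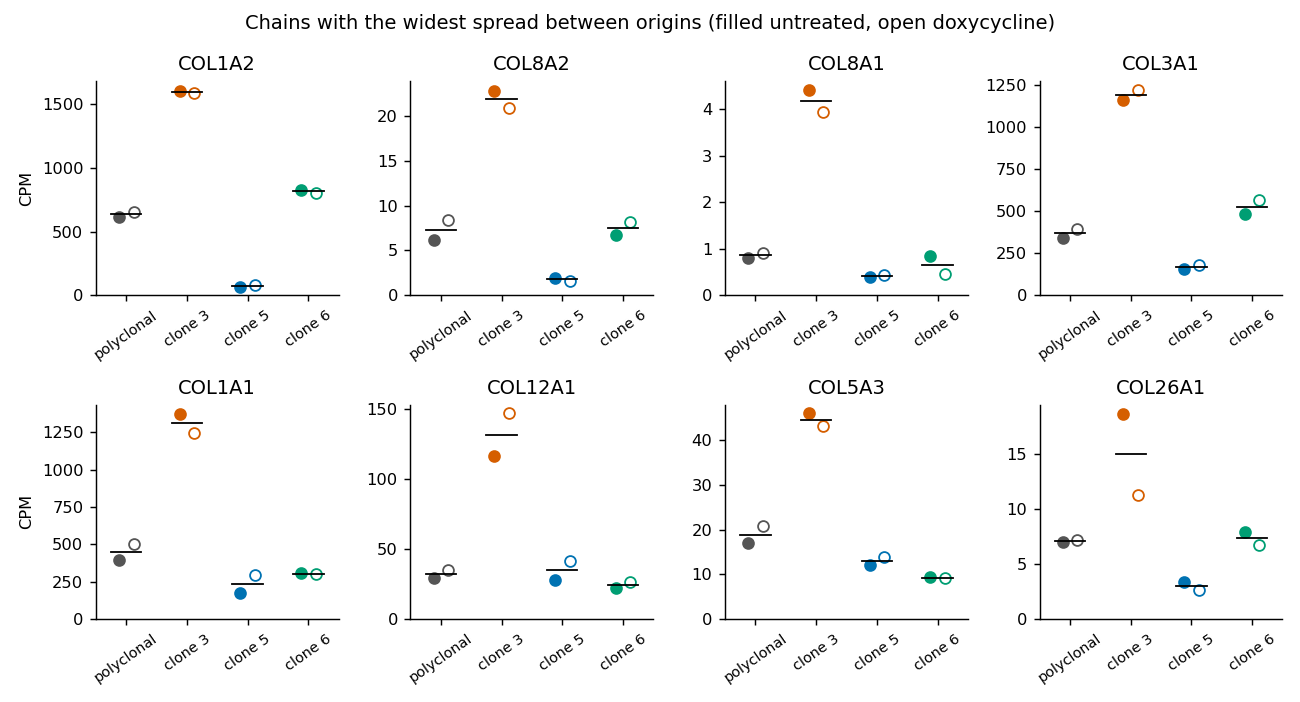
CPM of the 8 called chains with the widest range of origin means, on linear axes from 0; filled points are untreated, open points doxycycline cultures, and bars are the mean of the 2 cultures of an origin. Clone c3 is highest in all 8 panels, and clone c5 is lowest in all but COL12A1 and COL5A3, where clone c6 is.

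With origin as a block, 4 of the 30 collagen chains tested were lower and 1 was higher with doxycycline. Among the called chains COL5A1, the collagen V chain that helps to start fibrils, fell most. COL21A1, a FACIT chain, COL6A1 of the beaded filaments and COL4A2 of the basement membrane fell, and COL12A1 rose. Thus 5 of 30 chains (16.7%) passed the test, where 7.63% of all genes tested did (3.91% lower and 3.73% higher). None of these calls held without the block, when 0 chains and 0.00625% of all genes passed. Of the 30 chains 3 had an unadjusted p under 0.05 without the block, as did 1155 of all 15993 genes. DESeq2 called 9 chains with the block (12% of all genes) and 0 without it (1.45%). The groups overlapped in CPM for each of the 30 chains.

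COL5A1 (GRCh38 chromosome 9, 134641803 to 134844843) was at 161.3, 299.8, 88.9 and 128.8 CPM in the untreated polyclonal, c3, c5 and c6 cultures and at 114.8, 163.5, 49.3 and 69.8 CPM with doxycycline. It was lower in 4 of 4 pairs, least in the polyclonal population, by 0.49 on the log2 scale, and by 0.85 to 0.88 in the clones. The fold change over all pairs was -0.77 on the log2 scale (standard error 0.0768, 95% interval -0.95 to -0.59; adjusted p = 0.00594 with the block and 0.821 without), and by p-value the gene ranked 25 of 15993. COL5A1 was the only chain called in each of the 4 fits that left out 1 pair (adjusted p from 0.00765 to 0.033).

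COL21A1 (chromosome 6, 56056590 to 56394128) was at 103.6, 95.1, 88.3 and 128.5 CPM without and at 84.7, 78.4, 62.9 and 97.3 CPM with doxycycline. Every pair was lower, and the log2 fold change was -0.36 (standard error 0.0587; adjusted p = 0.0163, 0.675 without the block). From curated transcripts alone its fold change was -0.58 (adjusted p = 0.036). It was not called without clone c5 (0.0755) or without clone c6 (0.0658).

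COL6A1 (chromosome 21, 45981770 to 46005048) was at 163.7, 245.2, 93.0 and 172.6 CPM without and 154.6, 194.5, 64.8 and 130.6 CPM with doxycycline. The log2 fold change was -0.33 (standard error 0.0747; adjusted p = 0.0403, 0.996 without the block), and the call was lost in 3 of the 4 fits with a pair left out, those without c3 (0.0935), c5 (0.141) and c6 (0.131). Its partner COL6A2 did not pass, with a log2 fold change of -0.08 (95% interval -0.22 to 0.05).

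COL4A2 (chromosome 13, 110307284 to 110513209) was at 228.3, 402.3, 183.1 and 233.0 CPM without and 212.5, 330.1, 154.1 and 188.1 CPM with doxycycline. The change was the smallest of those called, at -0.24 on the log2 scale (standard error 0.0541; adjusted p = 0.0421, 0.997 without the block). COL4A1, its neighbour, was at -0.13 (95% interval -0.26 to 0.01; adjusted p = 0.228). Leaving out any 1 pair ended the COL4A2 call (adjusted p from 0.0578 to 0.144).

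COL12A1 (chromosome 6, 75084326 to 75206053) was the chain that rose, from 29.3, 116.3, 28.0 and 21.9 CPM to 34.8, 146.6, 41.4 and 26.6 CPM. It was higher in 4 of 4 pairs, and the log2 fold change was 0.36 (standard error 0.0708; adjusted p = 0.0269, 0.999 without the block). The COL12A1 call was also lost when any 1 pair was left out (adjusted p from 0.0556 to 0.135).

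The 3 most abundant chains did not pass the test. COL1A2 was at a log2 fold change of 0.06 (95% interval -0.07 to 0.20) and COL1A1 at 0.24 (-0.09 to 0.57), with COL1A1 values of 0.36 in the polyclonal, -0.14 in the c3, 0.79 in the c5 and -0.05 in the c6 pair. Without c5 the COL1A1 value was 0.0411. COL3A1 was at 0.17 (0.05 to 0.29; adjusted p = 0.0837), with the doxycycline culture higher in 4 of 4 pairs. Over the 20 chains with a mean of at least 1 TPM, the range between origins exceeded the size of the doxycycline change in 19. COL6A3 was the exception. Of all 30 chains tested, it did not in 5 (COL2A1, COL6A3, COL7A1, COL15A1 and COL18A1). A range of 4 origin means tends to be larger than an average of 4 paired changes, in which opposite signs cancel. These counts are therefore no test.

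Of the 11 fibrillar chains, all of which were tested, 1 passed (9.09%, against 7.63% of all genes) and 6 were lower in every pair, as were 15.9% of all genes. COL5A2, at -0.18 (95% interval -0.33 to -0.03; adjusted p = 0.13), did not pass, unlike its partner COL5A1, and the difference between them was tested only by the ratio above. COL16A1 (-0.30, adjusted p = 0.129) and COL25A1 (-0.11, 0.437) did not pass, nor did COL8A1 (-0.16, 0.742), COL8A2 (0.11, 0.689), COL5A3 (0.10, 0.578) and COL26A1 (-0.32, 0.236). For COL16A1 the value from curated transcripts alone was 0.10. COL27A1 fell short of the threshold at -0.37 (adjusted p = 0.0542 with the block and 0.997 without), and was lower in 4 of 4 pairs. Over the 30 chains 14 had an unadjusted p under 0.05, as did 24.8% of all genes tested, and the median log2 fold change was -0.17, against 0.004 over all genes tested. Both the 30 and the 14 include COL18A1, of which only 1.37% was matched. Some chains that did not pass had estimates larger in size than that of COL5A1 (-0.77). COL2A1 (-1.30), COL11A1 (-1.19) and COL7A1 (-1.19) were lower, and COL15A1 (1.35), COL18A1 (1.10) and COL28A1 (0.96) higher (adjusted p from 0.0522 to 0.244). The widest interval was that of COL7A1, from -3.38 to 1.00, whose main transcript was at 0 in 3 of the 8 libraries and at up to 1.83 TPM in the others. Whether the response differed between origins could not be tested, with 1 pair of cultures for each.

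**Figure D3:**
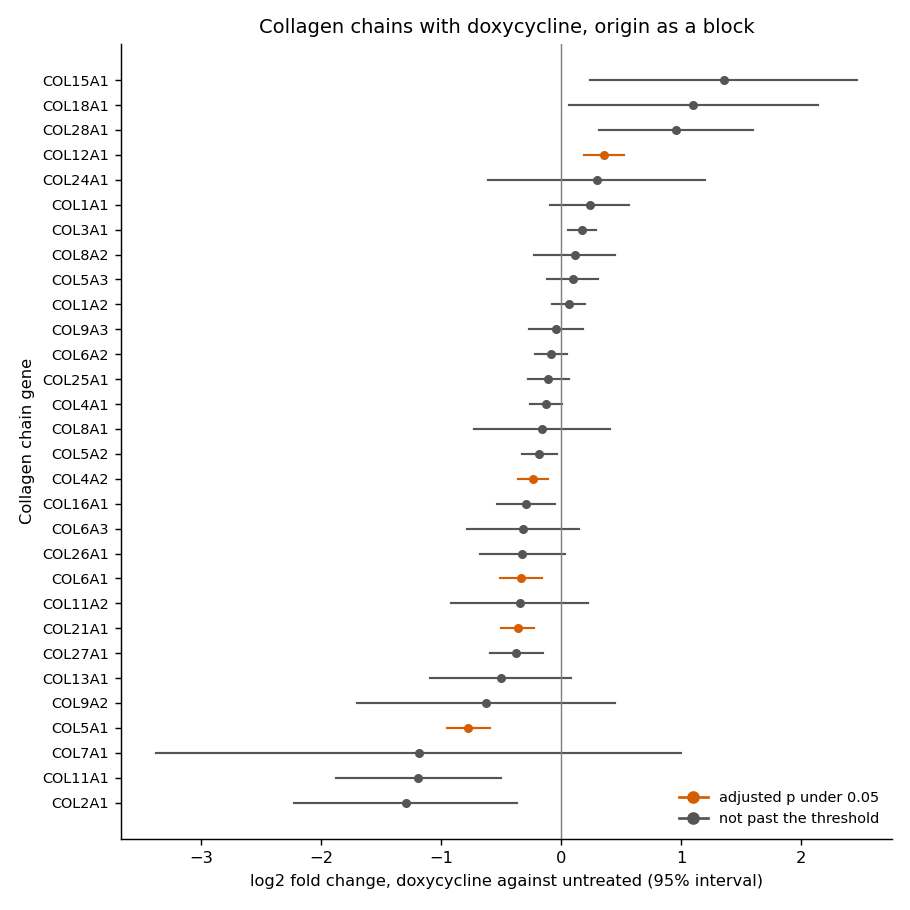
Log2 fold change of doxycycline against untreated cultures for the 30 collagen chains tested, with origin as a block; lines are 95% intervals and orange marks the 5 chains with an adjusted p under 0.05. COL5A1 (-0.77) is the largest called change, and COL7A1 has the widest interval (-3.38 to 1.00).

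**Figure D4:**
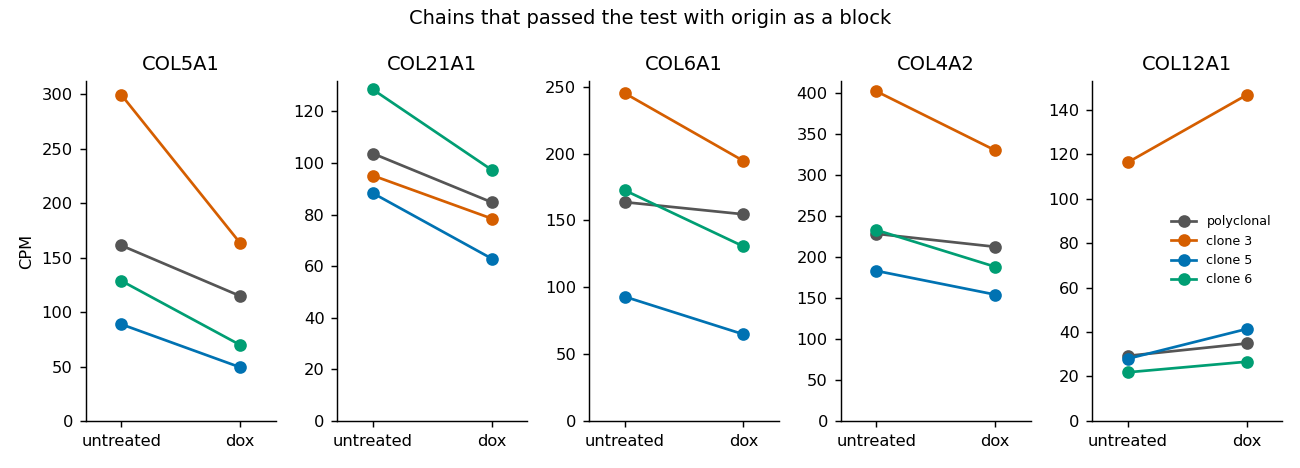
CPM of the 5 called chains in the untreated and doxycycline culture of each origin, joined by lines, on linear axes from 0. All lines fall for COL5A1, COL21A1, COL6A1 and COL4A2 and rise for COL12A1, and the ranges of the groups overlap in every panel.

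Promoter windows of 250 bases before to 50 after the start site were taken from RefSeq (GRCh38.p14) and matched 32 of the 44 chains. The 4 highest chains by mean TPM (COL1A2, COL3A1, COL1A1 and COL5A2) had no window, and neither had COL6A1, a called chain. The motif counts below do not cover these chains. The windows of the other 4 called chains are shown 5′ to 3′ because these genes changed with doxycycline, with capitals for each GC box (GGGCGG, or CCGCCC on the other strand) and each CCAAT box (CCAAT, or ATTGG).
COL5A1, chr9:134641553-134641852, plus strand: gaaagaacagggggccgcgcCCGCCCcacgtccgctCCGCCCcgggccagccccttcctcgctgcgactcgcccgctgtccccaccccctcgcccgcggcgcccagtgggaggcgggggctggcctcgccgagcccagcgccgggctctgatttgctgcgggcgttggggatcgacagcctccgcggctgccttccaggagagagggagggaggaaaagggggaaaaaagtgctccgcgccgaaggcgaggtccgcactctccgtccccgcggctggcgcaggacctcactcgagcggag
COL21A1, chr6:56247531-56247830, minus strand: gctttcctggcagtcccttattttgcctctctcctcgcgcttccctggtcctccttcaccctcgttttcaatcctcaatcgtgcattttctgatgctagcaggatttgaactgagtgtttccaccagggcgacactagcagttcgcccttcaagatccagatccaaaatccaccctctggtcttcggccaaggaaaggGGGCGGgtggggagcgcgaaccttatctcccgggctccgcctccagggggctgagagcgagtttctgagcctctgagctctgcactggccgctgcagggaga
COL4A2, chr13:110307034-110307333, plus strand: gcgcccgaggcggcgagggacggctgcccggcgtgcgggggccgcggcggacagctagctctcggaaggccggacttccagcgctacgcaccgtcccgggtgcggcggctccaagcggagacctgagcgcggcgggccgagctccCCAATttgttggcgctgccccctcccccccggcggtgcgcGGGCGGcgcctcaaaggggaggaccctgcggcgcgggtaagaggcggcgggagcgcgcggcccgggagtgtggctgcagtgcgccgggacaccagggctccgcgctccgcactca
COL12A1, chr6:75206004-75206303, minus strand: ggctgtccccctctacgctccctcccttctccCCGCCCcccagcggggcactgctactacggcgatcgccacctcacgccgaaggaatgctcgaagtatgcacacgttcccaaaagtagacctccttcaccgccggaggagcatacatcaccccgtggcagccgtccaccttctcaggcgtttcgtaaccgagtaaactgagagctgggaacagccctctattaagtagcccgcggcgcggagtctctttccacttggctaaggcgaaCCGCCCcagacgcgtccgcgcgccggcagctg
All 4 windows held a GC box, at 230 and 214 bases before the start in COL5A1, 52 before it in COL21A1, 65 before it in COL4A2, and 218 before and 19 after it in COL12A1. The COL21A1 window lies inside the annotated span of the gene. Over all 35116 promoter windows 45% held a GC box, and 18 of the 32 collagen windows did. CCAAT was found in 34.6% of all windows and in 10 collagen windows, and TATAAA in 11.5% and in 5. GGAAGGAA, 2 copies of the unit of the GGAA microsatellites bound by EWSR1-FLI1, was in 3.67% of all windows and in 0 of the 32, and the ETS motif CCGGAAG in 10.3% and in 0; both strands were searched for each motif, and a match or its absence describes these letters in this window alone. The starts of COL4A1 and COL4A2 lie 126 bases apart, so their windows overlap by 226 bases and hold the same CCAAT box. Those of COL4A3 and COL4A4 lie 418 and those of COL4A5 and COL4A6 379 bases apart.

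Genes that modify, fold, cleave, cross-link, degrade or bind collagen were counted in the same fit. Of 58 symbols listed, which stand for 57 genes, 54 were tested and 11 passed (20.4%, against 7.63% of all genes), 9 lower and 2 higher with doxycycline. Without the block 0 passed, and 1 had an unadjusted p under 0.05, as did 1155 of all 15993 genes. Each of the 11 moved the same way in 4 of 4 pairs. Each also lost its call in at least 1 of the fits that left out a pair. The 2 that rose, P4HA2 and MMP1, lost it whichever pair was left out (adjusted p from 0.0553 to 0.142 and from 0.0531 to 0.164). DESeq2 called 15 with the block (12% of all genes) and 0 without it (1.45%).

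In the endoplasmic reticulum, P4HA2, a catalytic subunit of the prolyl 4-hydroxylase, rose from 13.1, 22.0, 9.40 and 11.5 CPM to 18.5, 26.1, 13.6 and 15.8 CPM (log2 fold change 0.43, adjusted p = 0.0304). The related P4HA1 and the shared subunit P4HB did not pass (-0.02 and -0.08). P3H3 and P3H4, which act with the lysyl hydroxylase PLOD1, fell by 0.37 and 0.88 on the log2 scale (adjusted p = 0.0433 and 0.0307), and PLOD1 was at -0.20 (adjusted p = 0.13). FKBP10, a collagen chaperone, fell by 0.81 (adjusted p = 0.0433), from 3.09, 49.2, 3.01 and 1.37 CPM to 2.64, 27.6, 1.10 and 0.715 CPM. Like COL1A2 and COL3A1, FKBP10 was highest in clone c3, with a range between origins of 5.13 on the log2 scale. The chaperones PPIB and SERPINH1, the most abundant of the genes listed for folding and secretion (839 and 344 TPM), were at -0.19 and -0.10 and did not pass.

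Outside the cell, BMP1, the C-propeptide proteinase, and PCOLCE, its enhancer, fell by 0.41 and 0.46 on the log2 scale (adjusted p = 0.0203 and 0.0181). PCOLCE went from 127.0, 236.7, 86.5 and 171.8 CPM to 112.0, 158.6, 57.5 and 123.7 CPM. LOXL1, a lysyl oxidase of the cross-linking step, fell by 0.62 (adjusted p = 0.017), whereas the other 4 members of its family did not pass. Of the enzymes that degrade collagen, the interstitial collagenase MMP1 rose from 313.7, 1079.6, 168.3 and 315.8 CPM to 374.6, 1244, 346.1 and 541.9 CPM (log2 fold change 0.57, adjusted p = 0.047), and the gelatinase MMP2 fell by 0.32 (adjusted p = 0.0195).

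Of the proteins that bind fibrils, fibronectin (FN1), the most abundant gene of the list at 1079.85 TPM, fell by 0.40 (adjusted p = 0.0218), and the proteoglycan biglycan (BGN) fell by 0.73 (adjusted p = 0.0217). BGN was at 330.0, 722.8, 313.6 and 359.1 CPM without and at 267.8, 442.0, 131.4 and 225.3 CPM with doxycycline. SPARC (463 TPM) was at -0.13 and did not pass. Of the 8 receptors, among them the integrin subunit ITGB1 (292 TPM, -0.10), 0 passed, with 2 at an unadjusted p under 0.05 and 1 called by DESeq2 with the block. Between origins 36 of the 54 genes differed (66.7%, against 39.4% of all genes). CTAGE5 is a former symbol of MIA2, which was tested, and MMP8, MMP13 and FMOD were filtered out for low counts.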

How the data were processed

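RNA-seq was performed by the authors on stranded poly(A) libraries of 8 cultures, and reads were quantified with Salmon on GRCh38 RefSeq transcripts. The authors deposited, per library and transcript, an estimated count and a TPM, and a gene table made with DESeq2, of which only the symbols and the mean (a signal of normalized counts over all libraries) were used; its log2 fold change, p-value and score columns hold the authors' own comparison and were not read. The setting of strand in Salmon is not given in the sources used here.

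Transcripts were joined to symbols by RefSeq accession (GRCh38.p14), which matched 115325 of 158867 transcripts (99.2% of curated and 50.3% of predicted ones), and counts were summed per gene over 34792 genes. TPM served for levels and ratios only. Estimated counts were rounded, filtered with filterByExpr, scaled by TMM and tested with edgeR 4.0.16 (glmQLFit, glmQLFTest) in R 4.3.3, with origin and doxycycline in the model and Benjamini-Hochberg adjustment over 15993 genes at 0.05. Log2 CPM per culture used a prior count of 2. The study's methods name no pairing, so a fit without the block was made beside it. The pairing comes from the origin: both cultures of an origin are of the same cells, and their deviations from the group means correlated at 0.406 (polyclonal), 0.546 (c3), 0.59 (c5) and 0.582 (c6), against -0.395 to 0.179 between origins. On simulated data with 15993 genes, the blocked doxycycline fit found 90% of genes changed by a log2 value of 1, with 9 false calls of 147. The fit without the block found 42%, with 0 false calls of 44. The data were drawn from the blocked fit's own estimates, with changes only in well-counted genes, so the simulation favoured the block. Every called chain changed by less than a log2 value of 1, so the 90% does not apply to them.

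The alternatives were no block, DESeq2 1.42.0 with and without it, scaling by DESeq2's size factors, other count filters (at least 1 in any library, or 10 in all 8), effective length as an offset, curated transcripts only, and leaving out each origin. The members and the lists of classes, processing genes and markers were chosen with earlier results of these data known. Genes named are FEZF1, chains called with or without the block, the 12 chains highest in TPM, up to 8 called between origins with the widest range, the collagen IV pairs, and processing genes that were called or among the 10 highest. Chains with incomplete matching, COL2A1, COL11A1, COL11A2, the COL9 chains, COL27A1, COL13A1, COL15A1, COL24A1, COL28A1, P4HA1 and the processing genes not tested were named in addition after their values were seen. Python 3.11.15 with pandas 2.3.3, numpy 2.4.6 and matplotlib 3.10.9 was used. Other libraries of the study were not analysed here.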

Additional observations from a re-analysis of the deposited data

Results flagged for a closer look

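In groups of 4 cultures, the COL8A1 and COL12A1 values of clone c3 stood apart from the others by Dixon's test. COL8A1 was at 4.41 CPM in the untreated c3 culture, against 0.399 to 0.844 CPM in the other untreated cultures, and at 3.953 CPM in the doxycycline c3 culture, against 0.431 to 0.921 CPM. COL12A1 was at 116.3 CPM in the untreated c3 culture, against 21.9 to 29.3 CPM, and at 146.6 CPM in the doxycycline c3 culture, against 26.6 to 41.4 CPM. Of the 40 groups tested 4 stood out, and chance gives about 1 in 20. The cultures of c3 share their cells, so the flags of a gene in both groups are not independent.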

How the results depend on the processing

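The difference between origins was the steadier result: of 30 chains 21 were called, and 16 to 23 under the alternatives, 16 of them with curated transcripts only and 16 to 21 when 1 origin was left out. In the main fit 39.4% of all genes were called between origins, and this share is not given here for the alternatives. The doxycycline calls depended on the block. Without the replicate block 0 chains and 0 processing genes passed by edgeR, and the FEZF1 change was -0.80 (adjusted p = 0.29). In that fit 3 chains had an unadjusted p under 0.05, as did 1155 of all 15993 genes. With DESeq2 and no block 0 chains and 0 processing genes passed, while the FEZF1 change of -0.81 did (adjusted p = 0.0152). There 1 chain and 3 processing genes had an unadjusted p under 0.05, and the share of all genes is not given here. The block was the choice that matched the shared origin of the cultures. DESeq2 with the block called 9 chains, the 5 above among them, and 1920 of all 15993 genes. The others were COL27A1 (DESeq2 adjusted p = 0.00788), COL5A2 (0.0335) and COL16A1 (0.037), all lower, and COL3A1 (0.0274), which was higher. Curated transcripts only gave 2 chains (COL5A1 and COL21A1) and 5 processing genes, with 493 of 14965 genes called. The other scalings and filters gave 6 or 7 chains, COL27A1 among them each time, with 1161 to 1692 genes called. Leaving out 1 pair gave 1 to 3 chains and 2 to 10 processing genes, with fewer cultures. There were 3 chains without the polyclonal population (699 of 15735 genes called) and 3 without c3 (461 of 15945). There was 1 without c5 (175 of 15999) and 1 without c6 (230 of 16436). Processing genes called were 2 without c3, c5 or c6. The counts of chains thus moved along with those of all genes. With 1 pair left out, the FEZF1 change lay between -0.86 and -0.74. Changes of sign were counted only for the chains called, highest in TPM or widest between origins. Of these, 4 that were not called changed sign under a setting. COL1A2 went to -0.0099 (DESeq2 without the block) and, with a pair left out, lay at -0.0041 to 0.10 (below 0 without c5). COL8A1 lay at -0.29 to 0.0195 (above 0 without c6) and COL8A2 at -0.0155 to 0.20 (below 0 without the polyclonal pair). COL16A1 went to 0.10 (curated transcripts only). Outside this set, COL9A3 (-0.12 to 0.0230) and COL24A1 (-0.0507 to 0.61) also changed sign with a pair left out. The cause was not tested. The number of expressed chains was 23 at a mean of 0.5 TPM and 16 at 5 TPM. The shared reads of predicted and unmatched transcripts limit COL18A1, COL10A1 and COL14A1 most.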
